A study of Mus musculus with 4 samples.

Results

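Transcripts of 10 genes that shape and move mitochondria were examined in RNA-seq counts of mouse retinas at E13.5. The genes were *Mfn1*, *Mfn2*, *Opa1*, *Dnm1l*, *Fis1*, *Mff*, *Rhot1*, *Rhot2*, *Trak1* and *Trak2*, chosen by name for their roles in fusion, fission and transport, and they are 10 of the 24062 genes in the count table. The question was whether deleting *Nrf1*, which encodes nuclear respiratory factor 1, a transcription factor known for driving nuclear genes of mitochondrial respiration, changed their transcripts in the embryonic retina. Both genotypes had 2 libraries each. The wildtype (WT) libraries came from wild type embryos, and the mutant libraries, labelled Nrf1-CKO, came from *Nrf1* f/f;Six3-Cre embryos, in which Cre driven by Six3 removes the floxed exon 4 of *Nrf1* in retinal progenitor cells. All embryos were of a C57BL/6 129 mixed strain. Each library was made from pooled retinas of several littermates, and p-values rest only on counting error and the spread between these libraries.

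Mitochondria fuse and divide continuously. The mitofusins Mfn1 and Mfn2 are GTPases that tether and join outer membranes, while Opa1 joins inner membranes and keeps cristae in shape. Division is carried out by Drp1, the dynamin-related GTPase encoded by *Dnm1l*, which is recruited to the outer membrane by receptors such as Mff, and Fis1 also sits there. For transport along microtubules, the Miro GTPases encoded by *Rhot1* and *Rhot2* bind the adaptors Trak1 and Trak2, which connect the organelle to kinesin and dynein. Retinal ganglion cells (RGCs), whose axons form the optic nerve, are known for their sensitivity to defects in this machinery, and mutations in *OPA1* are a main cause of dominant optic atrophy.

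Because Nrf1 binds a known palindromic element near the start of its target genes, the RefSeq promoter windows of the 10 genes (assembly GRCm38.p6, 250 bases before to 50 bases after each start, 18 windows in all) were searched on both strands. The search used the 12-letter Nrf1 consensus and the sequences CGCATGCG and CGCACGCG, either of which can lie inside the consensus. *Opa1* was the 1 gene of the 10 with a match. Its window lies on the plus strand at chr16:29579084-29579383. The part up to the base before the start, chr16:29579084-29579333, is shown because it holds this match, with the matching bases in capitals:

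Opa1: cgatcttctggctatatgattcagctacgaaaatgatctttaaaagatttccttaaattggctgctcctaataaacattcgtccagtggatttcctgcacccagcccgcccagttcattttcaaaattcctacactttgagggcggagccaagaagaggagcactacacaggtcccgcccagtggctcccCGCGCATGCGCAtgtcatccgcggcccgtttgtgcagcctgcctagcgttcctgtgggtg

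The match, CGCGCATGCGCA, spans positions -60 to -49 from the start, at chr16:29579274-29579285, and contains CGCATGCG at -58 to -51. Of all 32851 RefSeq windows of this length, 1.27% held the consensus, 1.87% held CGCATGCG and 2.55% held CGCACGCG, which none of the windows of the 10 genes did. These are matches of letters and not measurements of binding. No comparison of transcript changes between genes with and without the element was made, since windows matched only 78.3% of the 15762 genes tested.

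All 10 genes were well covered, with 2005 to 13473 reads per gene and library. For comparison between genes, levels were divided by exonic length and given as RPKM, that is reads per kilobase of exon scaled to library size. The length took in the exons of all GENCODE transcripts of a gene, and the annotation behind the counts is not given. The order of the genes depends on this length, which the SD does not cover. Before the division, *Fis1* had fewer reads than *Dnm1l* in every library. In wildtype retinas, *Fis1* had the highest level, with 48.0 ± 1.5 RPKM (SD, n = 2), followed by *Dnm1l* with 28.7 ± 1.24 RPKM. *Opa1* and *Mfn2* were close to each other at 17.0 ± 0.437 and 16.5 ± 0.0730 RPKM. Next came *Rhot2* at 14.2 ± 0.808 RPKM and *Trak2* at 11.9 ± 0.863 RPKM.

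*Mff* at 9.96 ± 0.523 RPKM and *Rhot1* at 9.81 ± 0.650 RPKM did not differ beyond their spread, since their wildtype libraries overlapped. *Mfn1* had 7.86 ± 0.522 RPKM, and *Trak1* had the lowest level of the 10, 2.14 ± 0.00860 RPKM. In mutant retinas, *Opa1* moved from the third to the fifth place, with 15.0 ± 0.642 RPKM (SD, n = 2), behind *Mfn2* at 17.5 ± 0.567 and *Rhot2* at 16.3 ± 0.299 RPKM. *Mff* and *Rhot1*, again overlapping, changed places, and *Fis1*, *Dnm1l*, *Trak2*, *Mfn1* and *Trak1* kept their positions.

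None of the 10 genes changed between genotypes at an adjusted p of at most 0.05 in edgeR's quasi-likelihood test with Benjamini-Hochberg adjustment over all genes tested. Of all genes tested, 22.8% passed this threshold, 11.9% with higher and 10.9% with lower levels in the mutant. This share was 14.2% without wildtype replicate 1 and 11.7% without wildtype replicate 2, and again none of the 10 passed. At the criterion used in the study, at least a 1.4-fold difference with an adjusted p no greater than 0.2, again 0 of the 10 were called, against 20.9% of all genes. Neither DESeq2 nor limma on the deposited normalized values passed any of the 10. At an unadjusted p under 0.05 in edgeR, 4 of the 10 were found (*Opa1*, *Rhot2*, *Trak1* and *Trak2*), where 34.8% of all genes were, and 5 of the 10 had an adjusted p of at most 0.2 at any fold, where 39.9% of all genes did.

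The measured log2 fold changes of the 10 genes were small, from -0.23 for *Trak2* to 0.29 for *Trak1*, with standard errors between 0.0745 and 0.118. The median was -0.04 for the 10 genes and 0.00 for all genes tested. For 9 of the 10, the whole 95% interval lay within a 1.4-fold change in either direction, a log2 fold change of 0.49, as it did for 46.6% of all genes. *Trak1* was the exception. The genotypes did not overlap for 6 of the 10 genes, with mutant libraries above for 3 (*Mfn2*, *Rhot2*, *Trak1*) and below for 3 (*Opa1*, *Mff*, *Trak2*), as was found for 62.5% of all genes.

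**Figure D1:**
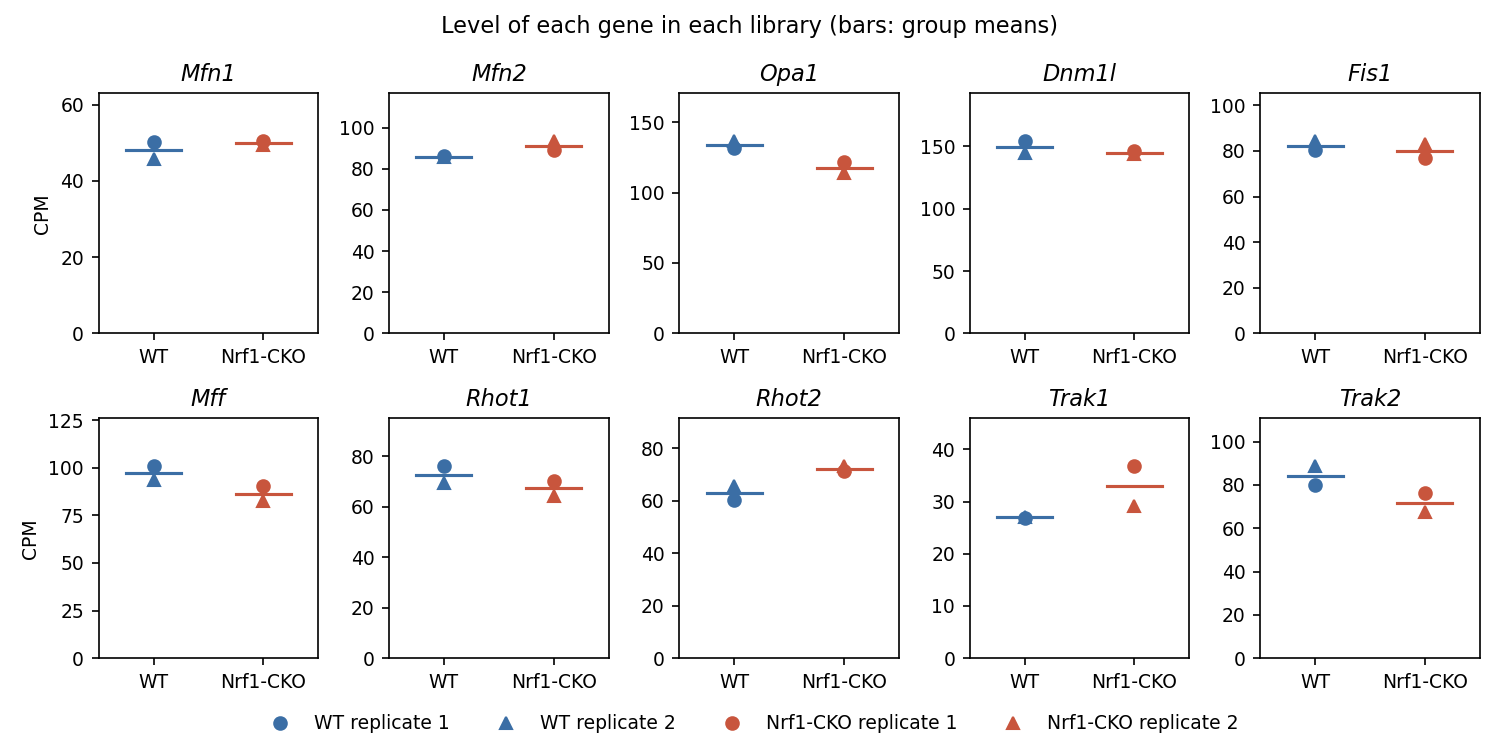
Level of each of the 10 genes in each library, in CPM (reads per 1000000 after TMM scaling of library sizes, linear axis from 0, a separate scale for each gene), with replicate 1 as circles, replicate 2 as triangles and group means as bars. The genotypes overlap for *Mfn1*, *Dnm1l*, *Fis1* and *Rhot1*, and *Trak1* shows a wide gap between the mutant libraries, at 36.8 and 29.2 CPM.

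The mitofusin genes were measured at nearly the same level in both genotypes. *Mfn1* (chromosome 3, 32529465 to 32579239, plus strand, GRCm38) had 50.3 and 45.8 CPM in the wildtype libraries and 50.3 and 49.5 CPM in the mutant libraries. These values overlapped, and the log2 fold change was 0.05 (95% interval -0.13 to 0.24, edgeR adjusted p = 0.686). *Mfn2* (chromosome 4, 147873599 to 147904704, minus strand) had 86.0 and 85.5 CPM in wildtype and 89.1 and 93.2 CPM in mutant libraries.

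Both mutant libraries thus lay slightly above both wildtype libraries for *Mfn2*, with a log2 fold change of 0.09 (95% interval -0.08 to 0.26, edgeR adjusted p = 0.455), which was 0.05 without mutant replicate 2. The *Mfn1* estimate turned to -0.01 without wildtype replicate 2 and was 0.13 without wildtype replicate 1. *Mfn1* contains a stretch of at most 176 bases that also occurs in transcripts of 65 other genes at high identity, so a small part of its reads could have been lost as not unique.

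The inner membrane gene *Opa1* (chromosome 16, 29579334 to 29654884, plus strand) was measured at a lower level in the mutant. It had 131 and 136 CPM in the wildtype libraries and 121 and 114 CPM in the mutant libraries. The genotypes did not overlap, and the mutant mean was 88.0% of the wildtype mean (log2 fold change -0.18, standard error 0.08, 95% interval -0.36 to -0.01). The unadjusted p was 0.0404 and the adjusted p was 0.124 in edgeR, so that *Opa1*, the gene with the Nrf1 consensus in its promoter window, did not pass the test. Of all genes tested, 55.3% had a larger log2 fold change in either direction. With each library omitted, the estimate stayed negative, between -0.23 and -0.14.

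The fission genes were likewise close to their wildtype levels. *Dnm1l* (chromosome 16, 16312230 to 16358959, minus strand) had 154 and 145 CPM in wildtype and 146 and 143 CPM in mutant libraries. *Fis1* (chromosome 5, 136953275 to 136966234, plus strand) had 80.5 and 84.2 CPM in wildtype and 76.8 and 83.2 CPM in mutant libraries. The genotypes overlapped for both genes. The log2 fold change of *Dnm1l* was -0.04 (95% interval -0.22 to 0.13, edgeR adjusted p = 0.730), and that of *Fis1* was -0.04 (95% interval -0.22 to 0.14, edgeR adjusted p = 0.757). Neither direction held with every library omitted in turn, since *Dnm1l* ranged from -0.08 without wildtype replicate 2 to 0.00 without wildtype replicate 1, and *Fis1* from -0.10 without mutant replicate 2 to 0.02 without mutant replicate 1.

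The fission receptor gene *Mff* (chromosome 1, 82724890 to 82752394, plus strand) had 101 and 93.6 CPM in the wildtype libraries and 90.3 and 82.3 CPM in the mutant libraries. Both mutant libraries lay below both wildtype libraries, although the gap between the genotypes was smaller than the gap between replicates of either genotype. The log2 fold change was -0.17 (95% interval -0.36 to 0.02) with an adjusted p of 0.184 in edgeR. It was -0.24 without mutant replicate 1 and -0.11 without mutant replicate 2 or wildtype replicate 1.

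Among the transport genes, the members of each pair of paralogs had estimates of opposite sign. *Rhot1* (chromosome 11, 80209019 to 80267907, plus strand) had 76.1 and 69.3 CPM in wildtype and 70.3 and 64.5 CPM in mutant libraries, which overlapped, with a log2 fold change of -0.11 (95% interval -0.30 to 0.08, edgeR adjusted p = 0.408). With each library omitted, the *Rhot1* value ranged from -0.17, without mutant replicate 1 or wildtype replicate 2, to -0.05 without mutant replicate 2 and -0.04 without wildtype replicate 1. *Rhot2* (chromosome 17, 25838457 to 25844851, minus strand) had 60.4 and 65.5 CPM in wildtype and 71.3 and 73.2 CPM in mutant libraries. Both mutant libraries were thus higher, at 115% of the wildtype mean, with a log2 fold change of 0.20 (95% interval 0.02 to 0.38, edgeR adjusted p = 0.106).

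Of the exonic bases of *Rhot2*, 29.4% are shared in the GENCODE annotation with *Gm20683*, a gene that is not among the genes counted here, and 1.82% with *Wdr90* on the same strand. Reads that fall in exons of more than 1 gene of the annotation used can be left out by the counting, which would apply to both genotypes. Whether that annotation held *Gm20683* is not known.

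*Trak1* (chromosome 9, 121297502 to 121474918, plus strand) had 26.9 and 27.0 CPM in the wildtype libraries and 36.8 and 29.2 CPM in the mutant libraries. The wildtype libraries were nearly equal, whereas mutant replicate 1 was well above mutant replicate 2. The mutant mean was 122% of the wildtype mean (log2 fold change 0.29, standard error 0.12, 95% interval 0.02 to 0.56, edgeR adjusted p = 0.115). This value depended on the mutant library used. Without mutant replicate 1 the log2 fold change was 0.12 (edgeR adjusted p = 0.574), and without mutant replicate 2 it was 0.45, which passed the test (edgeR adjusted p = 0.0105). The adjusted p of the other alternatives lay between these ends. The summed level of 7 lens genes was also higher in mutant replicate 1 than in mutant replicate 2, at 6246 against 2606 CPM, and its part in the *Trak1* value was not tested.

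*Trak2* (chromosome 1, 58900449 to 58973430, minus strand) had 80.0 and 88.6 CPM in the wildtype libraries and 76.1 and 67.4 CPM in the mutant libraries. Both mutant libraries were lower than both wildtype libraries, at 85.1% of the wildtype mean. Its log2 fold change was -0.23 (standard error 0.09, 95% interval -0.44 to -0.03) and its adjusted p of 0.104 was the lowest of the 10 genes in edgeR. Without mutant replicate 1 the log2 fold change was -0.32 and passed the test (edgeR adjusted p = 0.0217), while without mutant replicate 2 it was -0.15 (adjusted p = 0.340) and without wildtype replicate 2 it was -0.15 (adjusted p = 0.465).

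**Figure D2:**
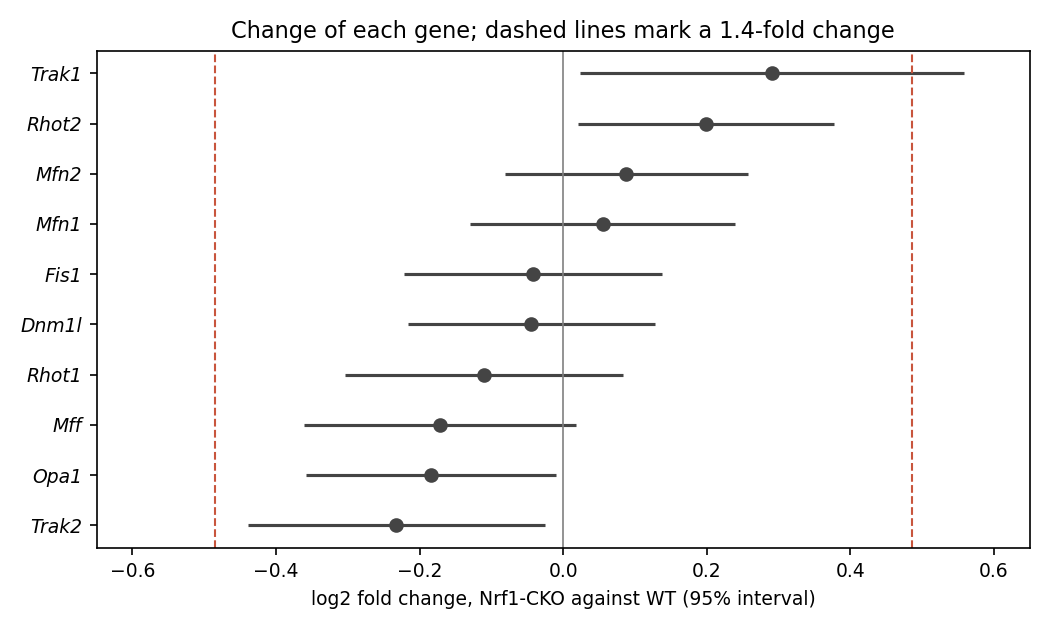
Log2 fold change of each gene in Nrf1-CKO against wildtype retinas (points) with its 95% interval from edgeR (lines). Dashed lines mark a 1.4-fold change in either direction. The interval of *Trak1* crosses the dashed line on the right, and the intervals of the other 9 genes stay between the lines.

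Since a ratio of 2 genes within a library does not depend on the scaling of libraries, the paralogs were also compared as log2 ratios of read counts. The log2 ratio of *Trak1* to *Trak2* was -1.57 and -1.71 in wildtype libraries and -1.05 and -1.21 in mutant libraries. All mutant ratios were higher, by 0.51 on average, which is larger than the SD between replicates, 0.0989 in wildtype and 0.112 in mutant libraries. The exact two-sided permutation test gave p = 0.33, the smallest that 2 against 2 libraries allow.

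The log2 ratio of *Rhot1* to *Rhot2* was 0.33 and 0.08 in wildtype and -0.02 and -0.18 in mutant libraries, a difference of -0.31 without overlap (exact permutation p = 0.33). The SD between replicates was 0.178 in wildtype and 0.115 in mutant libraries, and without wildtype replicate 1 the difference was -0.18. The log2 ratio of *Mfn1* to *Mfn2* was -0.77 and -0.90 in wildtype and -0.82 and -0.91 in mutant libraries. Here the genotypes overlapped, and the difference of -0.03 (exact permutation p = 0.667) was smaller than the spread between replicates. With 2 against 2 libraries, the exact permutation test of these 3 ratios cannot pass a threshold of 0.05, before or after adjustment.

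**Figure D3:**
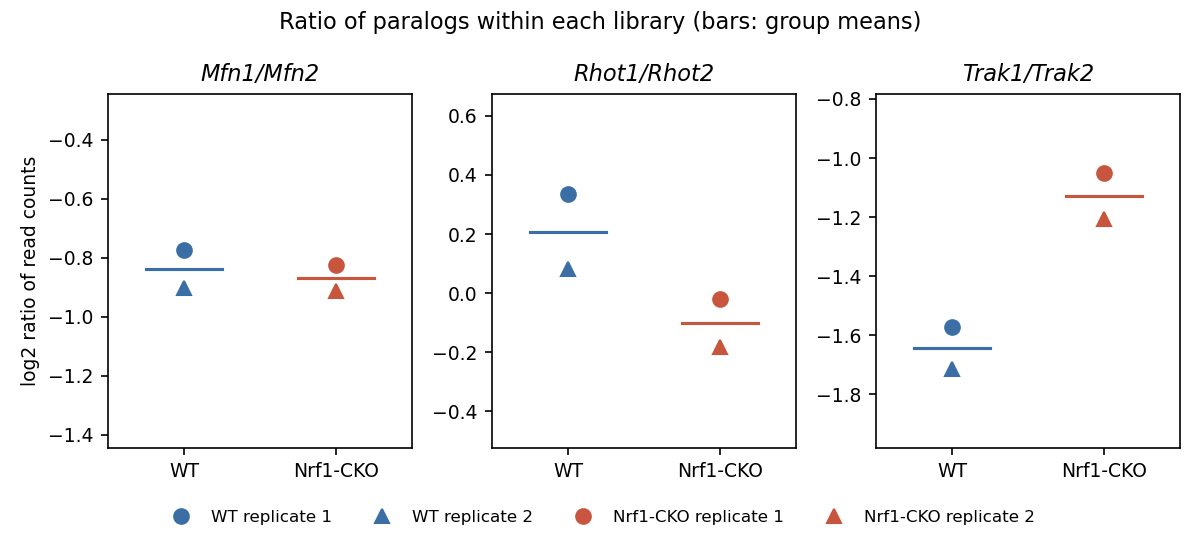
Log2 ratio of read counts of 3 pairs of paralogs in each library, with replicate 1 as circles, replicate 2 as triangles and group means as bars, on axes of equal length. The mutant ratios lie above both wildtype ratios for *Trak1*/*Trak2*, below them for *Rhot1*/*Rhot2*, and overlap with them for *Mfn1*/*Mfn2*.

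To place the 10 genes among the machinery they work with, 91 other genes of mitochondrial dynamics, transport and mitophagy were examined, of which 90 matched the table by symbol and were tested. Of these, 3 were higher and 19 lower in the mutant at an adjusted p of at most 0.05, and 68 did not pass, where 11.9% of all genes were higher and 10.9% lower. The median log2 fold change of the list was -0.05. The number of lower genes fell to 12 without wildtype replicate 1 and to 8 without wildtype replicate 2, where the share of lower genes among all genes was 6.58% and 5.03%.

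In the kinesin list, 5 of 13 genes fell and 1 rose, where 10.9% and 11.9% of all genes did. *Kif5a*, which encodes a neuronal heavy chain of kinesin-1, had 128 and 149 CPM in wildtype and 55.2 and 40.9 CPM in mutant libraries, with a log2 fold change of -1.53 (edgeR adjusted p = 0.000201). *Kif5c*, for another neuronal heavy chain, fell with a log2 fold change of -0.97 (adjusted p = 0.000564). The widely expressed heavy chain gene *Kif5b* had 190 and 193 CPM in wildtype and 198 and 185 CPM in mutant libraries, with a log2 fold change of 0.00 (95% interval -0.18 to 0.18). Light chain gene *Klc3* also fell, with a log2 fold change of -0.67 (adjusted p = 0.0463), but it did not pass in 5 of 11 alternative analyses. The log2 fold change of *Klc3* was -0.32 on the deposited normalized values and -0.47 without wildtype replicate 2. *Disc1*, which encodes a scaffold protein that has been placed in the Miro and Trak complex, rose from a low level, 1.16 and 1.09 CPM in wildtype, to 2.85 and 3.40 CPM (log2 fold change 1.47, adjusted p = 0.00588), and the log2 fold change was 0.51 on the deposited normalized values.

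In the list of dynein and dynactin genes, which also holds *Ndel1* and *Pafah1b1*, 8 of 20 genes fell and none rose, where 10.9% and 11.9% of all genes did. Both mutant libraries were below both wildtype libraries for 14 of the 20, where this held for 31.6% of all genes tested. The log2 fold changes of the 8 genes that fell lay between -0.55 and -0.26. The largest was that of *Dync1li1*, for a light intermediate chain of dynein, with 81.4 and 88.4 CPM in wildtype and 60.1 and 56.0 CPM in mutant libraries (adjusted p = 0.00174). The dynein heavy chain gene *Dync1h1* had a log2 fold change of -0.16 (95% interval -0.34 to 0.03). Among 9 other adaptors, anchors and regulators of transport, 1 gene fell, a share near the 10.9% of all genes.

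Other genes of fusion and fission mostly stayed below the threshold. In the fission list, 2 of 12 genes fell and 1 rose, beside 10.9% and 11.9% of all genes. *Gdap1*, for an outer membrane protein of neurons that is mutated in a form of Charcot-Marie-Tooth disease, had 16.4 and 18.1 CPM in wildtype and 7.93 and 5.95 CPM in mutant libraries (log2 fold change -1.31, adjusted p = 0.000608 in edgeR). Its paralog *Gdap1l1* fell with a log2 fold change of -1.16 (adjusted p = 0.000304). *Inf2*, for a formin that acts in fission at contacts with the endoplasmic reticulum, rose with a log2 fold change of 1.34 (adjusted p = 0.00723) from 1.78 and 2.21 CPM to 6.11 and 4.0 CPM, and this value was 0.58 on the deposited normalized values. In the fusion list, 1 of 15 genes fell, no larger a share than among all genes, and the 1 that rose was *Fam73b*, also called *Miga2*, for an outer membrane protein that promotes fusion, with a log2 fold change of 0.35 (adjusted p = 0.0247). *Fam73b* no longer passed in 3 of 11 alternatives, each of which left out a library.

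None of the 12 genes of inner membrane organization passed the test in edgeR, where 22.8% of all genes did. Of 9 genes of mitophagy, the removal of damaged mitochondria, 2 fell, beside 10.9% of all genes. *Pink1*, the kinase that marks damaged mitochondria and also acts on Miro, had 63.7 and 65.6 CPM in wildtype and 42.8 and 41.7 CPM in mutant libraries (log2 fold change -0.61, adjusted p = 0.000608). *Bnip3*, for an outer membrane receptor of mitophagy, had a log2 fold change of -0.90 (adjusted p = 0.00472). The other 11 genes of the list of 91 that passed all fell, with log2 fold changes between -0.53 and -0.25.

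**Figure D4:**
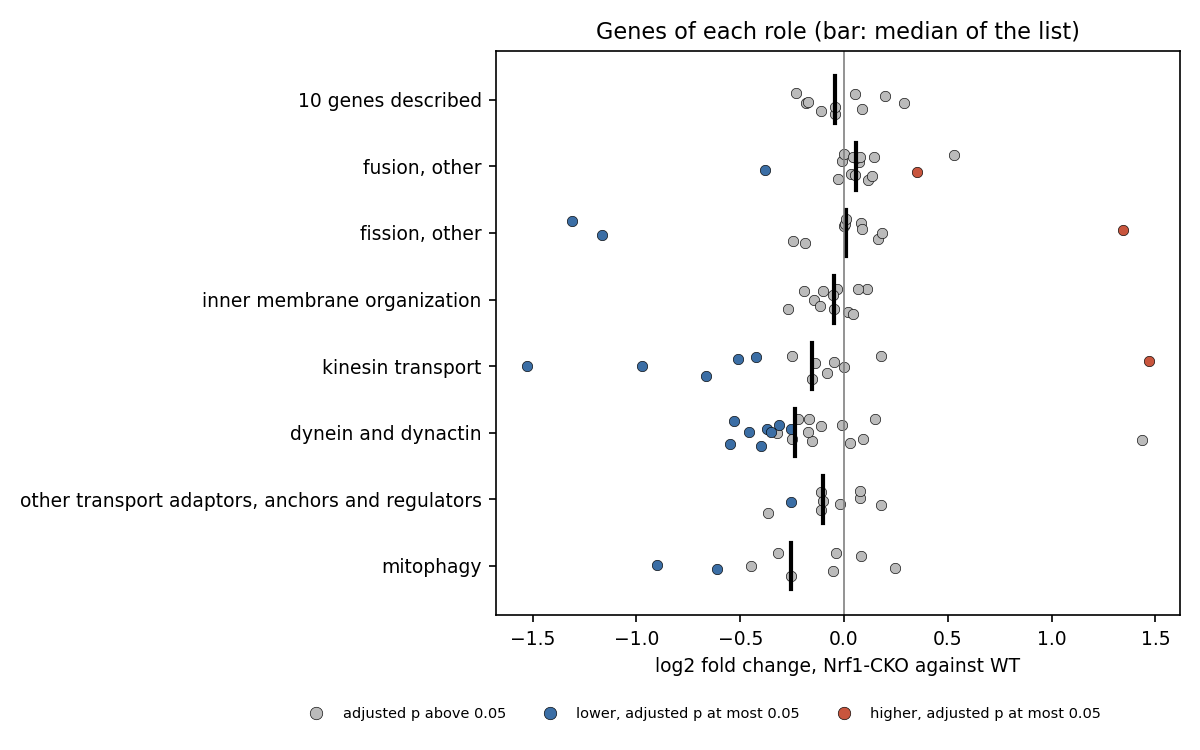
Log2 fold changes of the 10 genes described (top line) and of 90 related genes by role, each point 1 gene and each bar the median of its list; points are scattered vertically only for display. Genes that passed an adjusted p of 0.05 in edgeR are coloured, and they lie at both ends of the fission and kinesin lists, on the lower side for dynein and dynactin, and are absent among the 10 genes and inner membrane organization.

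The libraries also differed in the levels of cell type markers, and in bulk RNA fewer cells of a type and less RNA per cell cannot be told apart. In the counts that follow, rose and fell mean an adjusted p of at most 0.05 in edgeR. Of all genes tested, 11.9% rose and 10.9% fell by this measure. All 12 RGC markers fell, and their summed level went from 3258 and 3709 CPM in wildtype to 1424 and 1140 CPM in mutant libraries. Lens markers (7 of 7 rose) summed to 113 and 304 CPM in wildtype against 6246 and 2606 CPM in mutant libraries, and macrophage and microglia markers (7 of 7 rose) to 67.8 and 61.1 against 211 and 252 CPM. Pigment epithelium markers (5 of 6 tested rose) summed to 227 and 162 against 413 and 437 CPM, and those of the periocular mesenchyme (3 of 6 rose) to 132 and 92.3 against 222 and 196 CPM. Progenitor markers summed to 8084 and 8651 against 6305 and 6893 CPM, but only *Ccnd1*, from a mean of 2658 to 1446 CPM, and *Fgf15*, from 1137 to 701 CPM, passed the test, and the other 9 of 11 did not. Photoreceptor precursor markers (2 of 5 fell) summed to 348 and 353 against 307 and 312 CPM. Endothelial markers summed to 248 and 255 against 247 and 236 CPM, although 3 of 5 rose, among them *Cdh5* (231% of the wildtype mean) and *Pecam1* (219%), while *Kdr*, the most abundant of them, fell to 68.5%. Erythroid markers (1 of 5 tested rose) summed to 561 and 663 against 727 and 725 CPM. The part of these shifts in the values of the 10 genes, or of *Kif5a*, *Kif5c* and *Gdap1*, was not tested.

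Depth was similar in the 4 libraries, with 74577660 to 85933945 reads on genes. *Nrf1* itself had 103 and 105 CPM in wildtype and 103 and 100 CPM in mutant libraries, which overlapped (log2 fold change -0.03, edgeR adjusted p = 0.794). Counts over the whole gene do not show the loss of exon 4 and so do not check the deletion.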

How the data were processed

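RNA of pooled E13.5 retinas was sequenced by the authors as paired-end reads, aligned to mm10 with TopHat (version 2.7.2 per the submitters' processing notes) and counted per gene with HTSeq. The deposited table holds unnormalized whole-number counts, and the annotation release is not given in the sources used here. A second deposited table holds normalized values on a log2 scale, and the submitters' processing notes also name DESeq and limma without saying what each was used for. Summary entries of HTSeq (5 in number, 74.0% to 75.0% of all entries, mostly alignments that were not unique) were left out of library sizes and tests. The columns of both tables were matched to the 4 samples by name.

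Genes were filtered with filterByExpr at a minimum count of 10, which left 15762 of 24062, and scaled by TMM. The quasi-likelihood test of edgeR 4.0.16 (R 4.3.3) compared genotypes without covariates, with Benjamini-Hochberg adjustment over all genes tested. Standard errors and 95% intervals cover counting error and the spread of 2 libraries per genotype, and PCR copies are not independent molecules. Replicates differed by more than counting error (chi-square per gene 47.6 in wildtype and 59.1 in mutant pairs). In simulated counts of this comparison (15702 genes tested), 89 of 100 genes changed by 1 and 58 of 100 changed by 0.5 on the log2 scale passed, as did 35 of 15502 unchanged genes. The changed genes were drawn from all those with a mean above 1 CPM, and they were far fewer than the 3593 genes that passed in the data. These rates are therefore not those for the 10 genes.

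The 10 genes and the lists of related genes and markers were chosen with earlier results of these data known. All 10 were named, and of the list of 91, the genes at an adjusted p of at most 0.05 with a mean of at least 1 CPM, at most 8 per direction by size of change. *Kif5b* and *Dync1h1* were added after their values were seen. RPKM used the summed length of GENCODE exons (GRCm38), and shared transcript sequence was searched with blastn 2.17.0. The one gene of the list without a match is listed in the table under a name that a spreadsheet turned into a date. Alternatives were DESeq2 1.42.0, limma 3.58.1 on the deposited log2 values, scaling by library size or upper quartiles, other filters, a replicate block and each library left out. The authors' Cuffdiff analysis works on aligned reads and was not repeated.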

Additional observations from a re-analysis of the deposited data

How the results depend on the processing

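The direction of all 10 log2 fold changes, and the count of 0 genes called at 1.4-fold, held under other scalings, other filters, DESeq2, the replicate block and limma on the deposited log2 values. Upper-quartile scaling raised all genes alike (median of all genes 0.0403, against 0.0007), so that the median of the 10 genes was -0.0036 and the estimate for *Nrf1* 0.006. With a library left out, which assumes that a lone library varies like the others, the number of the 10 genes that passed ranged from 0 to 1 in each direction (*Trak1* higher without mutant replicate 2, *Trak2* lower without mutant replicate 1). Lower genes of the list of 91 then ranged from 8 to 19, and all genes passing from 1892 to 3514. The sign turned for *Dnm1l* without wildtype replicate 1 (range -0.0843 to 0.0042), for *Mfn1* without wildtype replicate 2 (-0.0075 to 0.1283) and for *Fis1* without mutant replicate 1 (-0.1025 to 0.0151). The cause was not tested.

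With the replicate number as a block, 0 of the 10 genes passed, 4 genes of the list of 91 were higher and 22 lower, and 4088 genes passed in all, against 3593 without it. The labels give same-numbered libraries nothing in common but the number. The correlation of their deviations from the group means was -0.0025 over 15762 genes. With 2 libraries per genotype, this value does not settle whether they shared a preparation. The mutant minus wildtype differences in the log2 ratios of paralogs without each library, chosen after seeing the data, ranged from 0.44 to 0.59 for *Trak1* to *Trak2*, from -0.44 to -0.18 for *Rhot1* to *Rhot2* and from -0.09 to 0.03 for *Mfn1* to *Mfn2*. Other pseudocounts were not tried, since the normalized values had been deposited on a log2 scale. Each genotype had only 2 libraries of similar depth, which limits the precision of every value given.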
